A study of Mus musculus with 2 samples.

Results

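The genes described here encode the mitochondrial respiratory chain and the ATP synthase, measured by RNA sequencing in CD8+ regulatory T cells, a population of CD8+ T cells that restrains other immune cells. They were chosen by symbol alone: every gene whose symbol starts with Nduf, Uqcr, Cox4, Cox5, Cox6, Cox7, Cox8 or Atp5, together with Sdha, Sdhb, Sdhc, Sdhd, Cyc1 and Cycs. This took 92 of the 22609 genes listed in both libraries. By role, 41 belong to complex I, 4 to complex II, 9 to complex III, 19 to complex IV and 16 to complex V, and 1, Cycs, is cytochrome c. The remaining 2 carry a matching symbol but encode no subunit: Cox4nb, now named Emc8, encodes a subunit of a membrane protein insertase of the endoplasmic reticulum, and Ndufa4l2 is a hypoxia-induced paralog of Ndufa4. Of the 41 complex I genes, 5 are assembly factors (Ndufaf1, Ndufaf2, Ndufaf3, Ndufaf4 and Atp5sl, now named Dmac2). Ndufa4 and Cox7a2l were placed with complex IV, where their proteins act.

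The study compared 2 libraries. The DKO library came from mice labelled Tgfbr2-/-Eomes-/-, where Eomes encodes a T-box transcription factor of effector T cells and Tgfbr2 a receptor chain for TGF-beta, and the other library came from mice labelled WT. In both, the cells came from the spleen of naïve mice, 3 months of age, and were isolated by flow cytometry with no culture or treatment. How many mice went into a library and which allele or Cre driver removed the genes are not stated in the sources used here, and the labels' text gives no markers for the sort. With 1 library per genotype there were no replicates, so no p-value is given, and each interval is an exact 95% Clopper-Pearson interval of the counts that covers counting error only. No molecular identifiers are stated for the reads, so copies of 1 molecule may be counted more than once, which these intervals do not cover.

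Complex I oxidises NADH and complex II oxidises succinate, and both pass electrons to coenzyme Q. Complex III hands them on to cytochrome c and complex IV to oxygen, while complexes I, III and IV pump the protons whose return drives ATP synthesis by complex V. Resting and memory T cells are known to draw much of their ATP from this pathway, whereas activated T cells raise glycolysis. The subunits that mitochondrial DNA encodes were not analysed here.

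The gene counts totalled 19661212 for DKO and 22307065 for WT. Levels are given as CPM, counts per 1000000 gene counts with TMM scaling of the libraries, so that 1 count stands for 0.0500 CPM in DKO and 0.0456 CPM in WT. Both targeted transcripts were still counted in DKO but at lower levels: Eomes stood at 180 CPM in DKO and 469 CPM in WT, a log2 ratio of -1.39, and Tgfbr2 at 244 and 357 CPM, a log2 ratio of -0.55. The counts cover whole genes and do not show whether the deleted part was read. The CD8 chains were at 978 CPM (Cd8a) and 1220 CPM (Cd8b1) in DKO, against 998 and 1201 CPM in WT, and 10 CD8 T cell markers summed to 8774 CPM in DKO and 10096 CPM in WT with 1 of 10 above a ratio of 1. Markers of other cells were mostly higher in DKO. Summed dendritic cell markers reached 5013 CPM in DKO against 1814 CPM in WT (11 of 11 above a ratio of 1), myeloid markers 3952 against 1479 CPM (12 of 12), NK markers 1454 against 903 CPM (8 of 9), CD4 and FOXP3 T cell markers 405 against 208 CPM (10 of 10) and plasma cell markers 528 against 298 CPM (4 of 6). B cell markers summed to 96.2 CPM in DKO against 138 CPM in WT with 6 of 8 above 1. The 2 below 1 were Cd22, at 24.1 CPM in DKO and 82.8 CPM in WT, and Cr2, at 1.70 and 3.74 CPM. Erythroid and platelet markers summed to 35.9 CPM in DKO against 17.1 CPM in WT (6 of 6). The defining markers Hba-a1, Hba-a2, Hbb-b1, Hbb-b2 and Klra4 were at 0 in both libraries, and Ebf1 was at 0 in DKO. Proliferation genes had a median log2 ratio of 1.59, with 10 of 16 at least 2-fold higher in DKO. The part that these differences in marker and proliferation genes had in the results was not tested, and in such bulk libraries fewer cells of a type and less RNA per cell cannot be told apart.

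Counted RNA of the members was close to the same in both libraries on the TMM scale and on total gene counts. Summed over the 92 members, it made up 1.17% of all gene counts in DKO (229655 counts) and 1.16% in WT (259461 counts). The ratio of the sums, DKO over WT, was 0.971 (interval 0.966 to 0.977) after TMM scaling and 1.00 on total gene counts, so its side of 1 was set by the scaling. A ratio was formed for the 82 members with at least 1 CPM in either library. Their median log2 ratio was -0.03, with quartiles at -0.15 and 0.09, against a median of 0.00 and quartiles at -0.26 and 0.37 over all 11735 genes compared. It was 0.018 on total gene counts and 0.20 with T cell receptor scaling. In that scaling the summed counts of 24 T cell receptor signalling genes are made equal. Every log2 ratio, also that of the sums, then moves up by 0.23.

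Few members passed either of 2 limits, a ratio of 2-fold and a smaller ratio of 5 to 4 (an absolute log2 ratio of 0.32). At 2-fold, with an interval that leaves out a ratio of 1, 1 member was higher in DKO (Cox6b2) and 2 were lower (Cycs and Atp5l), while 79 passed in neither direction. Cox6b2 and Atp5l are under 2 CPM and reached the minimum of 1 CPM only through the library in which they are higher, and among members with at least 5 CPM in either library 0 passed 2-fold. Of all genes compared, 15.2% passed this limit (11.6% higher and 3.6% lower), against 3.66% of the 82 members. These 2 shares include genes between 1 and 5 CPM. No share of all genes was taken at 5 CPM or more, so the 0 has no matching share. At the 5-to-4 limit, 6 members were higher in DKO and 8 lower, which is 17.1% of the 82, against 44.8% of all genes compared (25.4% higher and 19.4% lower). This balance was set by the scaling: with T cell receptor scaling 21 members were higher in DKO and 2 lower, while 48.9% of all genes compared passed (40.8% higher and 8.16% lower). Subunit genes are abundant, and ratios of abundant genes spread less, so the same counts were taken among genes of like abundance. At 100 CPM or more in either library, 2 of 47 members (4.26%) passed the 5-to-4 limit, against 27.0% of the 2627 genes in that range. Between 20 and 100 CPM, 7 of 26 members (26.9%) passed, against 38.4% of 4928 genes. Under 20 CPM, 5 of 9 members (55.6%) passed, against 63.4% of 4180 genes. Members also have short transcripts, with a median of 849.5 bases against 3002 bases over all genes compared. Among genes with at least 20 CPM and a transcript of 1000 bases or less, 4 of 41 members (9.76%) passed, against 30.4% of 398 genes.

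**Figure D1:**
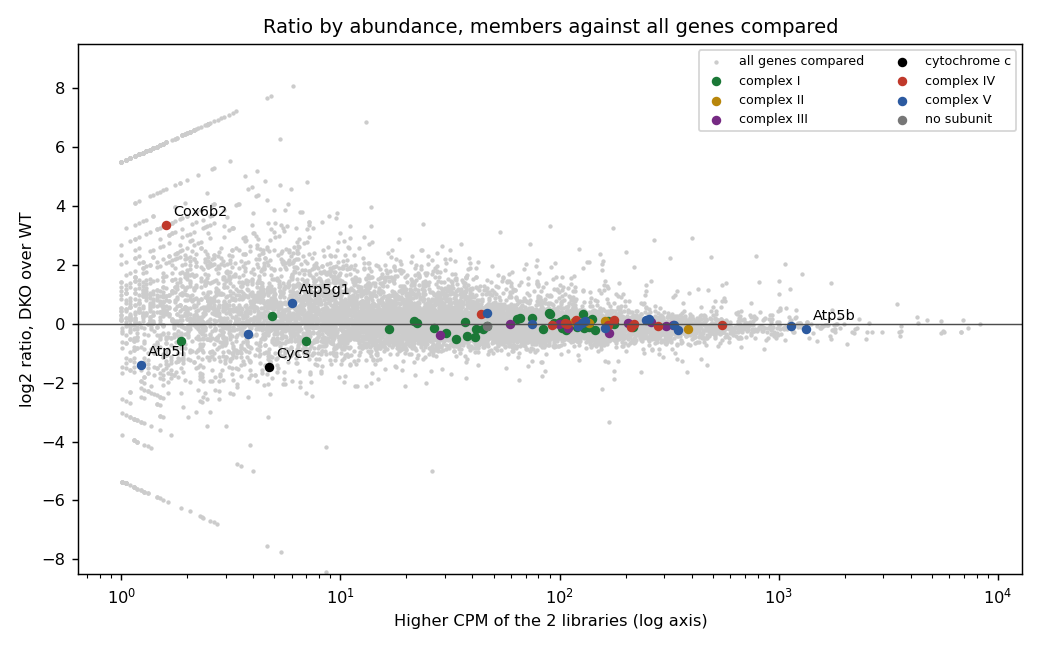
Log2 ratio, DKO over WT, of every gene compared (grey points) and of the members (coloured by complex) against the higher CPM of the 2 libraries on a log axis. Members above 20 CPM lie in a narrow band around 0 inside the grey cloud, and Cox6b2, Cycs, Atp5l and Atp5g1 stand out at low abundance.

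**Figure D2:**
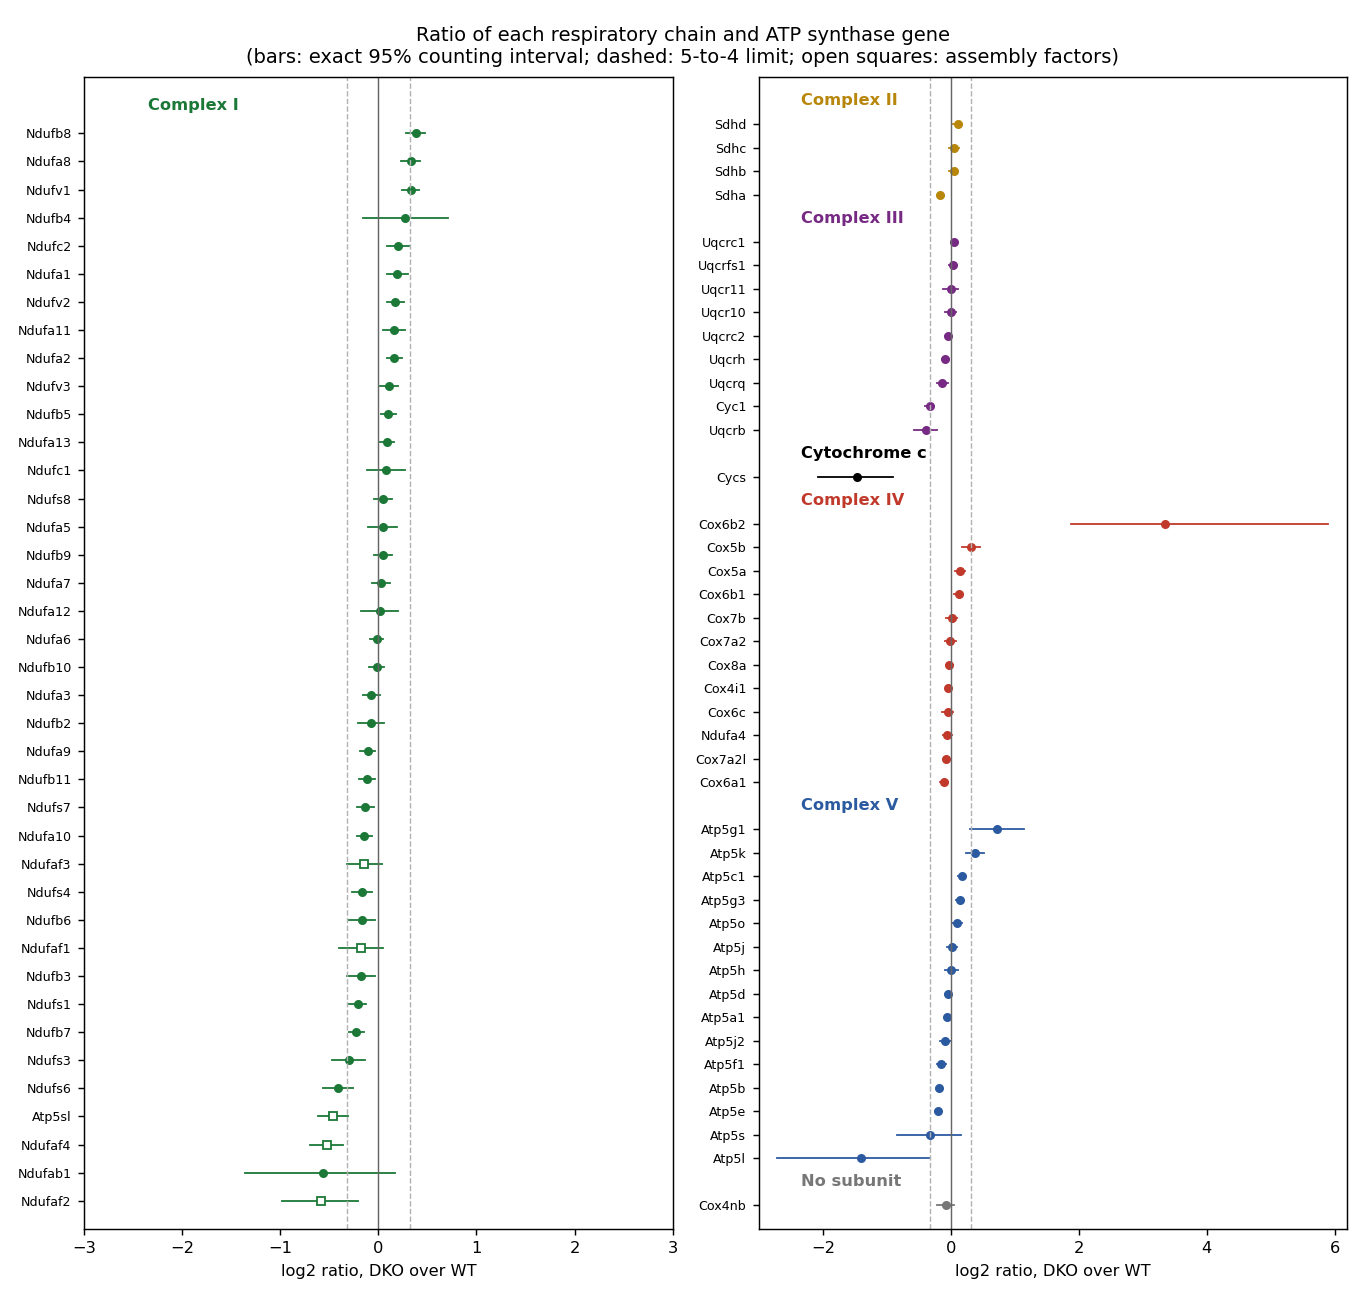
Log2 ratio, DKO over WT, of 81 of the 82 members compared, each with its exact 95% counting interval, grouped by complex and ordered by value. Open squares mark the 5 complex I assembly factors chosen by symbol, all on the lower side of 0, and dashed lines mark the 5-to-4 limit.

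Complex I was the largest group by number of genes and was nearly level in sum on the TMM scale. Its 41 genes took 0.321% of gene counts in DKO and 0.312% in WT. The ratio of sums was 0.996 (0.985 to 1.01) after TMM scaling, and the median log2 ratio was -0.04. On total gene counts the ratio of sums was 1.03, and T cell receptor scaling moves its log2 value up by 0.23 from the TMM scale. The 7 nuclear-encoded core subunits, which carry the flavin, the iron-sulphur clusters and the quinone site, lay on both sides of 0. Ndufv1, which binds NADH and the flavin, had 2545 counts in DKO and 2225 in WT, or 127 and 101 CPM, and was 1.255-fold higher (1.19 to 1.33). Ndufv2, its iron-sulphur partner, had 106 CPM in DKO and 94.1 CPM in WT and did not reach that limit (ratio 1.13). Ndufs1, the largest iron-sulphur subunit of the same NADH-oxidising module, went the other way, with 92.5 CPM in DKO and 107 CPM in WT (ratio 0.864, 0.812 to 0.919). The intervals of Ndufs1 and of the other 2 genes of this module did not overlap, although the log2 ratio of Ndufs1, -0.21, turned positive under T cell receptor scaling. Ndufs7, a subunit at the quinone site, had 94.0 CPM in DKO and 103 CPM in WT. Ndufs3, of the same module, had 24.6 CPM in DKO and 30.4 CPM in WT (ratio 0.811), and 47.8% of the 50-base windows of its coding sequence also occur at another annotated locus. Ndufs8 had 101 CPM in DKO and 97.3 CPM in WT.

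The 28 accessory subunits compared had a median log2 ratio of 0.02, with 2 past the 5-to-4 limit in the higher direction and 1 in the lower. Together these are 10.7% of the 28, against 44.8% of all genes compared. At the abundance of most of these subunits the shares of all genes were smaller, 38.4% between 20 and 100 CPM and 27.0% at 100 CPM or more. Ndufb8, in the membrane arm, had the highest ratio of complex I, with 1783 counts in DKO and 1504 in WT, or 89.2 and 68.6 CPM (1.30-fold higher, 1.21 to 1.39). Ndufa8, also in the membrane arm, had 90.8 CPM in DKO and 72.3 CPM in WT (1.26-fold higher, 1.17 to 1.35). Ndufs6, a small subunit that binds zinc, had 568 counts in DKO and 829 in WT, or 28.4 and 37.8 CPM (1.33-fold lower, 1.19 to 1.48), but fell short of the limit under T cell receptor scaling (log2 ratio -0.18). The other 25 accessory subunits passed in neither direction. Ndufs5 was listed at 0 in both libraries.

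The 5 assembly factors of complex I that the choice by symbol took all lay below 0 on the TMM scale. Together the 5 had 96.8 CPM in DKO and 125.2 CPM in WT, a ratio of sums of 0.773 (0.729 to 0.820). Their median log2 ratio was -0.47, against 0.00 over all genes compared. At the 5-to-4 limit 3 of the 5 (60%) were lower, against 19.4% of all genes compared. Ndufaf2, which helps to finish the NADH module, had 92 counts in DKO and 152 in WT, or 4.60 and 6.93 CPM (1.503-fold lower, 1.15 to 1.97). Ndufaf4, which works in early assembly together with Ndufaf3, had 468 counts in DKO and 739 in WT, or 23.4 and 33.7 CPM (1.44-fold lower, 1.28 to 1.62). Atp5sl, a factor for the membrane arm despite its symbol, had 594 counts in DKO and 900 in WT, or 29.7 and 41.0 CPM (1.38-fold lower, 1.24 to 1.53). Ndufaf1 (14.8 CPM in DKO, 16.7 CPM in WT) and Ndufaf3 (24.3 and 26.9 CPM) had intervals that include 1, and these turned positive under T cell receptor scaling. Under that scale the median of the 5 was -0.23 and none of the 3 others still passed the 5-to-4 limit with an interval leaving out 1. None of the 5 has a coding window shared with another locus. Complex I assembly factors with other symbols did not all lie on that side. Foxred1 had 690 counts in DKO and 506 in WT (log2 ratio 0.58) and Nubpl had 77 and 57 (0.56), while Acad9 had 538 and 729 (-0.30), all with intervals that leave out 1, and Ecsit and Tmem126b had intervals that include 1. These genes were named after their values were seen.

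Complex II, which is also an enzyme of the citric acid cycle, passed no limit in any of its 4 genes. Sdha, the flavoprotein that oxidises succinate, was its most abundant gene, with 6854 counts in DKO and 8427 in WT, or 343 and 384 CPM (ratio 0.892, 0.864 to 0.921). The other members had ratios of 1.03 to 1.08. Sdhb, the iron-sulphur subunit, had 136 CPM in DKO and 132 CPM in WT, and the membrane anchors Sdhc and Sdhd had 116 and 161 CPM in DKO, against 112 and 150 CPM in WT. The intervals of Sdha and of the other 3 genes did not overlap. The log2 ratio of Sdha, -0.16, turned positive under T cell receptor scaling. Without Sdha, the ratio of the summed complex was 1.05, against 0.972 with it.

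Complex III had 0 genes higher and 2 lower at the 5-to-4 limit, of 9 compared. These 2 are 22.2% of the complex, near the 19.4% of all genes compared that were lower at this limit. Cyc1, the cytochrome c1 subunit that passes electrons to cytochrome c, had 2664 counts in DKO and 3672 in WT, or 133 and 167 CPM (1.26-fold lower, 1.19 to 1.32), with no coding window shared with another locus. This call is close to the limit, and the ratio of Cyc1 fell inside it on total gene counts (log2 ratio -0.28), with scaling to the median of abundant genes (-0.24) and under T cell receptor scaling (-0.095), without a change of sign. Uqcrb, an accessory subunit near the quinone site, had 433 counts in DKO and 624 in WT, or 21.7 and 28.4 CPM (1.31-fold lower, 1.16 to 1.49), and 72.9% of its coding windows occur at another locus. This call was lost with scaling to the median of abundant genes (log2 ratio -0.30) and under T cell receptor scaling (-0.16). The core proteins and the iron-sulphur subunit were nearly level. Uqcrc1 had 261 CPM in DKO and 252 CPM in WT, Uqcrc2 had 321 and 329 CPM, and Uqcrfs1, the Rieske protein, had 205 and 200 CPM. The other 4 accessory subunits, Uqcr10, Uqcr11, Uqcrh and Uqcrq, had ratios of 0.911 to 0.999.

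Complex IV had 0 of 10 compared ubiquitous subunits past the 5-to-4 limit, against 44.8% of all genes compared. Most of these subunits lie at 100 CPM or more, where 27.0% of all genes passed. Cox4i1, a subunit needed for assembly of the enzyme, was the most abundant, with 10740 counts in DKO and 12136 in WT, or 537 and 553 CPM (ratio 0.971, 0.946 to 0.997). Cox5a had 119 CPM in DKO and 108 CPM in WT. Cox5b, the zinc-binding subunit, lay just under the limit at a ratio of 1.245, with 43.7 CPM in DKO and 35.1 CPM in WT, and passed it on total gene counts; 61.5% of its coding windows occur at another locus. Cox6a1 had the lowest ratio of complex IV, 0.928, at 198 CPM in DKO and 213 CPM in WT. Cox7a2l, which links complexes into supercomplexes, had 269 CPM in DKO and 283 CPM in WT. Cox7c was the exception among the ubiquitous subunits, with 7 counts in DKO and 0 in WT, which is at least 2.56-fold higher with WT at a floor of 3 counts and the DKO count taken as it stands. The exact interval of this ratio, which also covers counting error in DKO, starts lower, at 1.58.

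The isoforms of complex IV subunits that are known from muscle, lung or testis were at or near 0. Cox4i2 (lung), Cox8b (heart and skeletal muscle), Cox7b2 and Cox8c (testis), and likewise Ndufa4l2, had 0 counts in both libraries, which allows up to 0.150 CPM in DKO and 0.137 CPM in WT. Cox6b2, the testis form of Cox6b, had 32 counts in DKO and 3 in WT, or 1.60 and 0.137 CPM, a ratio of 10.2 with a wide interval of 3.66 to 59.7. Cox6a2, the heart and skeletal muscle form of Cox6a, had 15 counts in DKO and 0 in WT, at least 5.49-fold higher against the floor of 3 counts in WT, with an interval that starts at 3.94. Cox7a1, another muscle form, had 6 counts in DKO and 0 in WT, at least 2.19-fold higher against the same floor, with an interval that starts at 1.29. Cox6a2 and Cox7a1 did not reach 1 CPM in either library, and Cox6b2 reached it only in DKO, so these 3 are given gene by gene and are not read as a group. Per kilobase of transcript, the levels of these isoforms stayed far under those of their common paralogs. Cox6b2 had 2.74 CPM per kilobase in DKO and 0.234 in WT, where Cox6b1 had 287 and 264. Cox6a2 had 1.103 CPM per kilobase in DKO and 0 in WT, where Cox6a1 had 346 and 373. The paired proteins differ widely in sequence: translated reference coding sequences are 53.4% identical between Cox6b2 and Cox6b1, 51.7% between Cox6a2 and Cox6a1 and 57.6% between Cox7a1 and Cox7a2, and none of the 7 isoforms shares a coding window with another locus.

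Complex V took the largest share of gene counts, 0.409% in DKO and 0.417% in WT, which is not corrected for transcript length. Its ratio of sums was 0.949 (0.940 to 0.958) after TMM scaling, and the interval overlaps that of complex III at 0.960 (0.945 to 0.975). On total gene counts the ratio of complex V was 0.981. The catalytic F1 head made up most of the counts of complex V. Atp5b, the catalytic beta subunit, had 23310 counts in DKO and 29104 in WT, or 1166 and 1327 CPM (ratio 0.879, 0.864 to 0.894). Atp5a1, the alpha subunit, had 21599 counts in DKO and 24814 in WT, or 1080 and 1131 CPM (ratio 0.955, 0.938 to 0.973). Atp5e, the epsilon subunit, had 301 CPM in DKO and 346 CPM in WT (ratio 0.869), Atp5d (delta) had 322 and 332 CPM, and Atp5c1, the gamma subunit of the rotating shaft, had 257 and 228 CPM (ratio 1.13). None of the 5 passed the 5-to-4 limit, and the 4 log2 ratios below 0 turned positive under T cell receptor scaling. Without Atp5b, the most abundant gene, the ratio of the summed complex was 0.980, above that of complex III without its own most abundant gene (0.956). Among the subunits of the membrane part and the stalk, Atp5k, subunit e at the dimer interface, had 934 counts in DKO and 791 in WT, or 46.7 and 36.1 CPM (1.30-fold higher, 1.18 to 1.43). Atp5f1, Atp5h, Atp5j, Atp5j2 and Atp5o had ratios of 0.901 to 1.07. Atp5l, subunit g, had only 9 counts in DKO and 27 in WT, or 0.450 and 1.23 CPM (2.64-fold lower, 1.248 to 6.61).

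**Figure D3:**
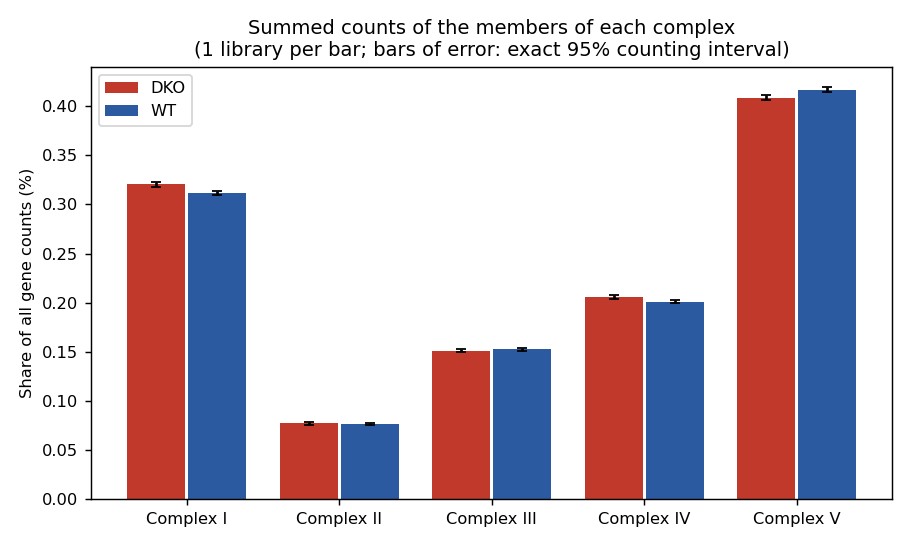
Summed counts of the members of each complex as a share of all gene counts, with exact 95% counting intervals, DKO to the left of WT. The paired bars are nearly level, complex V is the highest at 0.409% in DKO and 0.417% in WT, and complex II is the lowest at 0.0769% and 0.0765%.

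The membrane ring of ATP synthase is built of subunit c, which 3 genes encode. Their proteins end in 78 identical residues and differ in the leader that directs import. To show how far the coding letters of these identical residues differ, the first 90 bases of the shared tail are printed for each gene, from GENCODE transcripts of build GRCm38, with capitals at the 26 positions that are not the same in all 3 genes.
Atp5g1 (chromosome 11): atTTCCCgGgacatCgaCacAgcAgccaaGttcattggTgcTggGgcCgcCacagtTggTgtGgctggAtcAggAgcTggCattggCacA
Atp5g2 (chromosome 15): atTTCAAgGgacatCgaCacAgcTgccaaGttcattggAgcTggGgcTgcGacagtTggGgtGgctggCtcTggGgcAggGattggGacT
Atp5g3 (chromosome 2): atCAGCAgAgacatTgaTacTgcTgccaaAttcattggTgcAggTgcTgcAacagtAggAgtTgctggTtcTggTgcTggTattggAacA
Over the whole tail of 234 coding bases, Atp5g1 differs from Atp5g3 at 50 bases and Atp5g2 differs from it at 53. Atp5g3 held nearly all counts of the 3 genes, with 4966 in DKO and 4955 in WT, or 248 and 226 CPM (log2 ratio 0.14, interval of the ratio 1.06 to 1.14). Atp5g1 had 120 counts in DKO and 80 in WT, or 6.0 and 3.65 CPM (1.64-fold higher, 1.23 to 2.21), and Atp5g2 was listed at 0 in both libraries. No coding window of Atp5g3 occurs at another annotated locus, while 99.7% of those of Atp5g1 and 100% of those of Atp5g2 do.

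Several genes that cells with mitochondria use were counted at or near 0, and this went with copies elsewhere in the genome. For each gene, every 50-base window of its coding sequence, the length of a read, was looked up in all other annotated transcripts of the reference. In 7 members at least 99% of these windows were also found at another locus: Atp5g1, Atp5g2, Atp5l, Cox7c, Cycs, Ndufab1 and Ndufb4. Their counts were 0 to 120 in DKO and 0 to 104 in WT. The 47 members with no shared window, apart from the 7 isoforms above, Ndufa4l2 and Cox4nb, had 60 to 21599 counts in DKO and 83 to 24814 in WT. Those with more than 0% but under 25% shared windows (18 members) had 433 to 23310 counts in DKO and 450 to 29104 in WT. With 25% to under 99% shared (11 members), counts were 0 to 5382 in DKO and 0 to 6198 in WT, and the gene at 0 was Ndufs5, with 72.5%. In both libraries the rows for reads that aligned to more than 1 place were large, at 64.8% of all tallied entries in DKO and 66.4% in WT. How the counting treated such reads is not stated in the sources used here, and its part in these low counts was not tested.

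For 38 members a locus that shares the most windows was found, and in 3 of these cases that locus has a row of its own in the count files. BC002163, the locus that shares windows with Ndufs5, had 93 counts in DKO and 144 in WT while Ndufs5 had 0 in both. Gm10012, which shares windows with Cox7c, had 13 counts in DKO and 0 in WT, the same direction as the 7 and 0 counts of Cox7c. The third, 0610005C13Rik, shares 5 windows with Cox4nb and was at 0 in both libraries. These loci were named after their values were seen. At least 1 shared window was found in 38 of the 92 members (41.3%), counted over the whole transcript, against 31.5% of the 22208 genes of the files that matched a reference transcript.

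Cycs, the mobile carrier between complexes III and IV and a trigger of apoptosis when released had 34 counts in DKO and 104 in WT, or 1.70 and 4.74 CPM. This is 2.76-fold lower in DKO (1.88 to 4.24), with 100% of its coding windows found at other loci, and 10 loci annotated as pseudogenes share windows with its transcript. Its ratio rests on the few counted reads, and so do those of Atp5l and Atp5g1, and its interval overlaps that of Atp5l. Ndufab1, the mitochondrial acyl carrier protein, had 25 counts in DKO and 41 in WT, and Ndufb4, an accessory subunit of complex I, had 97 and 88, both with intervals that include 1. Without the members that have 25% or more of their coding windows elsewhere, a choice made after seeing the data, 1 member in place of 3 passed 2-fold and 9 in place of 14 passed the 5-to-4 limit, 5 higher and 4 lower in DKO. The median log2 ratio was then -0.02.

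**Figure D4:**
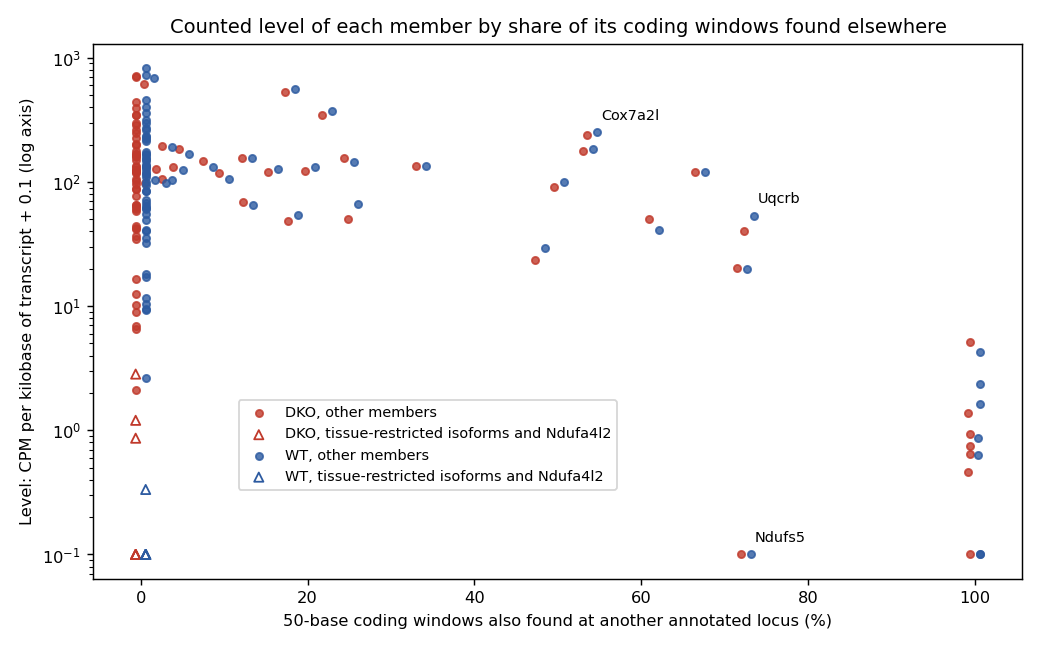
Level of each of the 92 members in CPM per kilobase of transcript, plus 0.1, on a log axis, against the percentage of its 50-base coding windows also found at another annotated locus, with the points of the 2 libraries set slightly apart to the left (DKO, red) and right (WT, blue). The 7 members at 99% or more lie at the bottom right, at no more than 4.996 CPM per kilobase in DKO and 4.13 in WT, and triangles mark the tissue-restricted isoforms and Ndufa4l2, which are low with no shared window.

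Per kilobase of transcript, the members differed widely in level. The 5 highest held the same order in both libraries and were Atp5e (714 CPM per kilobase in DKO, 822 in WT), Cox4i1 (702 and 723), Atp5b (608 and 692), Uqcrh, the hinge protein of complex III (525 and 556), and Atp5a1 (437 and 458). Within complex I, core subunits ran between 23.5 and 124 CPM per kilobase in DKO and between 29.0 and 136 in WT. The assembly factors were lower, between 6.44 and 16.3 CPM per kilobase in DKO and between 9.28 and 18.1 in WT. Atp5s, coupling factor B, was the lowest member with no shared window that is not tissue-restricted, at 2.02 CPM per kilobase in DKO and 2.55 in WT (60 and 83 counts), with an interval of its ratio that includes 1.

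The members also share promoter letters, which the choice by symbol did not use. RefSeq promoters of build GRCm38.p6, from 250 bases before to 50 bases after the start, were available for 75 members (81 promoters). They were searched on both strands for the letters of 3 factors known for their place in respiratory gene promoters. The NRF1 letters GCGCNTGCG were in 28 of the 81 (34.6%), against 6.31% of all 32851 promoters. The ETS letters CCGGAAG, which GABPA binds, were in 21.0% against 8.86%, and the YY1 letters AAGATGGCG in 11.1% against 1.40%. At least 1 of the 3 was in 54.3% of the members' promoters and in 14.9% of all promoters. Members compared had median log2 ratios of 0.00 with NRF1 letters (24 genes) and -0.06 without (45 genes), of -0.02 with ETS letters (17 genes) and -0.01 without (52 genes), and of -0.12 with YY1 letters (8 genes) and 0.00 without (61 genes). None of these differences was tested. The promoters of Cycs, the carrier with the lowest ratio, and of Sdhd, the anchor with the highest ratio of complex II, are printed to show the same NRF1 letters in front of genes on opposite sides of 0, each 5′ to 3′ along the gene's own strand. Capitals mark the matches, which in both promoters read on the opposite strand.
Cycs (chr6:50566520-50566819, minus strand): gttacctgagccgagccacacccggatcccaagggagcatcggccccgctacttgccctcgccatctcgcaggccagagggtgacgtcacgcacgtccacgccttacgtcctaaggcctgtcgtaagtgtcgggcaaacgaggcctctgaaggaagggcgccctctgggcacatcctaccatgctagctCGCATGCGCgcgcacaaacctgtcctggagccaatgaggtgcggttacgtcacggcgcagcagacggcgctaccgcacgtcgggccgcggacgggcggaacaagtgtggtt
Sdhd (chr9:50603800-50604099, minus strand): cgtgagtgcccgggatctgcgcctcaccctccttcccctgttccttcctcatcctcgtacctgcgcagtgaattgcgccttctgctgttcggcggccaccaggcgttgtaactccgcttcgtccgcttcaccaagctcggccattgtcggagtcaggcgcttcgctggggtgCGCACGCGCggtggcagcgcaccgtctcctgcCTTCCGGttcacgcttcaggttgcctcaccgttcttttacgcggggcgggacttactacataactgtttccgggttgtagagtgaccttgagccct
In Cycs the NRF1 letters start at base 190 of the window. In Sdhd they start at base 173 and the ETS letters at base 205. A match describes letters and is no evidence of binding.

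Genes that work with the respiratory chain are given by lists, to be read beside the shares of all genes compared, and not at matched abundance. Those shares were 15.2% at 2-fold (11.6% higher and 3.6% lower) and 44.8% at the 5-to-4 limit (25.4% higher and 19.4% lower). Of 26 further assembly factors compared, of 35 listed, 1 was at least 2-fold higher in DKO and 0 lower, and 4 passed the 5-to-4 limit in the higher and 5 in the lower direction (34.6% together, against 44.8% of all genes), with a median log2 ratio of -0.05. Lyrm7, a chaperone of the Rieske protein, had 6.95 CPM in DKO and 3.28 CPM in WT (2.11-fold higher, 1.58 to 2.86), and Ttc19, which clears Rieske fragments from complex III, had 4.35 and 8.25 CPM (1.89-fold lower, 1.46 to 2.48). Lrpprc, which stabilises mitochondrial mRNAs, had 54.0 CPM in DKO and 94.0 CPM in WT (1.74-fold lower), and Sco2, a copper chaperone of complex IV, had 6.55 and 10.4 CPM (1.59-fold lower).

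Of 19 genes for coenzyme Q synthesis and for enzymes that feed electrons into it, 0 were at least 2-fold higher and 1 lower, and 5 passed the 5-to-4 limit in each direction (52.6% together, against 44.8% of all genes; median 0.05). Pdss2, which makes the tail of coenzyme Q, had 77 counts in DKO and 221 in WT, or 3.85 and 10.1 CPM (2.60-fold lower, 2.01 to 3.44). Coq4, also in this pathway, had 4.55 CPM in DKO and 6.84 CPM in WT (log2 ratio -0.58). Sqrdl, the sulphide oxidase, had 12.7 CPM in DKO and 7.43 CPM in WT (1.70-fold higher), and Adck3, an atypical kinase needed for coenzyme Q, had 25.1 and 16.3 CPM (1.53-fold higher).

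Of 17 regulators of mitochondrial gene expression, 2 (11.8%) were at least 2-fold higher in DKO, near the 11.6% of all genes, and 0 lower. At the 5-to-4 limit 2 were higher and 4 lower (35.3% together, against 44.8% of all genes, with a median of -0.08). The 2 past 2-fold were Mterf, a mitochondrial transcription termination factor, with 5.55 CPM in DKO and 2.37 CPM in WT (2.33-fold), and Tfb2m, a mitochondrial transcription factor, with 7.30 and 3.37 CPM (2.16-fold). Pprc1, a coactivator of NRF1, had 49.7 CPM in DKO and 85.1 CPM in WT (1.71-fold lower), and Ssbp1, which coats single-stranded mitochondrial DNA, had 11.9 and 18.5 CPM (1.55-fold lower).

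Carriers, porins, import proteins and matrix markers had a median of -0.09, with 0 of 26 past 2-fold and 0 higher and 5 lower at the 5-to-4 limit. These 5 are 19.2% of the list, near the 19.4% of all genes that were lower at this limit. The 4 farthest from 0 were matrix chaperones and an import receptor. Hspd1 had 57.7 CPM in DKO and 109 CPM in WT (1.89-fold lower, 1.76 to 2.03), and its partner Hspe1 had 52.0 and 85.8 CPM (1.65-fold lower, 1.53 to 1.78). Tomm20, a receptor of the outer membrane, had 55.9 CPM in DKO and 93.7 CPM in WT (1.68-fold lower, 1.56 to 1.81), and Hspa9, the import motor, was 1.42-fold lower. Of 9 genes for uncoupling and for handling reactive oxygen, 0 passed 2-fold. At the 5-to-4 limit 2 passed in each direction (44.4% together, near the 44.8% of all genes, with a median of -0.08). Prdx5, a peroxiredoxin, had 178 CPM in DKO and 131 CPM in WT (1.36-fold higher), Higd1a was 1.36-fold higher, Nnt, the proton-driven transhydrogenase, had 39.2 and 54.6 CPM (1.39-fold lower), and Gpx4 was 1.31-fold lower. The medians of these lists lie within the 0.23 by which T cell receptor scaling moves every gene, so the negative ones turn positive under that scaling.

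**Figure D5:**
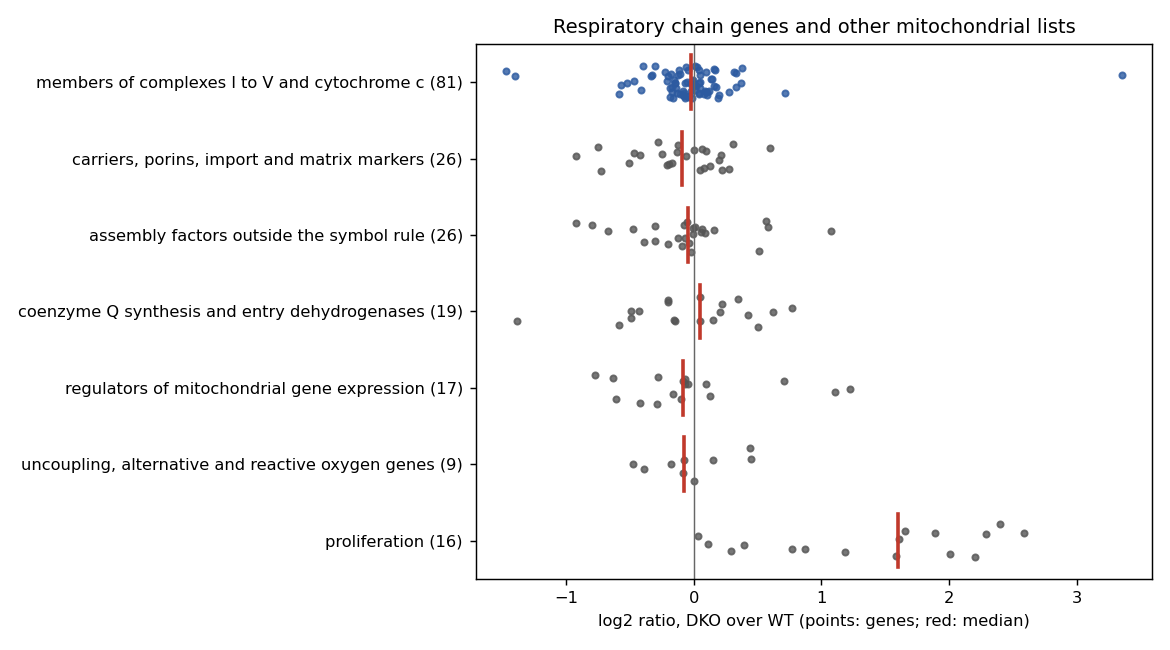
Log2 ratio, DKO over WT, of each compared gene (points) in complexes I to V with cytochrome c and in 6 other lists, with the number of genes in brackets and the median as a red line. The medians of the mitochondrial lists lie between -0.09 and 0.05, and that of the proliferation list at 1.59.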

How the data were processed

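RNA was measured in 2 libraries of sorted spleen CD8+ regulatory T cells, 1 DKO and 1 WT, grouped by the genotype label. Libraries were prepared from total RNA with an Illumina TruSeq kit and sequenced from 1 end over 50 bases, per the labels' protocols. The authors deposited raw counts per gene; TopHat2 2.0.8b, HTSeq, bcl2fastq and, as build, mm9 appear in the submitters' processing notes without their roles. The annotation, the strand setting and the treatment of reads with several alignments are not stated in the sources used here, so reads of overlapping antisense genes cannot be told apart. The 5 rows that name no gene were left out; the row for alignments that were not unique held 64.8% of all entries in DKO and 66.4% in WT, the row for reads outside genes 4.45% and 4.89%, and the ambiguous row 0.212% and 0.209%.

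From the counts, CPM were computed with TMM factors of edgeR 4.0.16 (1.02 for DKO, 0.983 for WT) and log2 ratios with a prior count of 0.5, for genes that reach 1 CPM in either library. A call needs the limit (2-fold, or 5 to 4) and a Clopper-Pearson 95% interval of the ratio that leaves out 1. The procedure was tested on simulated counts that held counting error only, with the library sizes given. That test did not cover variation between animals or the choice of scaling. Levels between genes are CPM per kilobase of GENCODE vM21 (GRCm38) transcripts. This is not the build of the files, so no coordinates of the files are given. Shared windows are 50-base stretches of coding sequence found, on either strand, in a transcript of another, non-overlapping gene. DESeq2 1.42.0 size factors, total counts, T cell receptor genes and the median of genes with at least 100 CPM were alternative scalings.

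The members and all gene lists were chosen with earlier results of these data known. Named were fixed core subunits and tissue isoforms, members past the 5-to-4 limit with at least 5 CPM, the highest and lowest ratio of each complex at that level, members at 0 in a library, at that level the up to 4 genes of each other list whose log2 ratios were farthest from 0, and Tgfbr2, Eomes, Cd8a, Cd8b1 and Cd4. Cell type and proliferation lists are given as sums, medians and counts, with the defining markers at 0 named. Some genes of this rule are not reported here. Other members were named to complete a complex or a small count. Cd4 had 79.0 CPM in DKO and 17.4 CPM in WT.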

Additional observations from a re-analysis of the deposited data

How the results depend on the processing

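No paired analysis was possible because each genotype has 1 library, and for the same reason no library could be left out. The median log2 ratio of the members, -0.03, became 0.018 on total gene counts, 0.058 with scaling to the median of genes at 100 CPM or more and 0.20 with T cell receptor scaling. The ratio of the summed members, 0.971, became 1.00 on total gene counts and 0.989 without the most abundant member of each complex. The 3 calls at 2-fold became 6 with no filter on low counts, 5 at a limit of 1.5-fold, 0 among members with at least 5 CPM and 1 without members whose coding windows are shared, an alternative chosen after seeing the data. The 14 calls at 5 to 4 became 33 at a limit of 1.1-fold, 9 without members with shared windows and 23 with T cell receptor scaling, where 21 were higher and 2 lower in DKO, against 6 and 8 with TMM; on total gene counts they were 7 and 7. Of 35 members followed by name, each kept its direction and side of the limit with DESeq2 size factors, with a prior count of 5 and with no filter. With T cell receptor scaling, 5 newly passed the limit, 6 no longer did and 16 more moved out of their counting interval, and the sign of 10 turned. With scaling to the median of abundant genes, 1 newly passed, 2 no longer did, 16 moved and 5 turned sign, and on total gene counts 1 newly passed, 1 no longer did, 4 moved and 2 turned sign. Depth limits the members under about 5 CPM, whose intervals are wide, and 1 library per genotype limits every comparison to these 2 libraries.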
